A study of Mus musculus with 66 samples.

Results

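The second day after a muscle injury was compared with the first. Mouse gastrocnemius, a calf muscle, had been injected with cardiotoxin, a venom component that kills muscle fibres and spares the satellite cells that rebuild them, and was taken 2 d or 1 d later. The comparison used 8 of the 66 arrays of the series, chosen by their labelled time alone, and no array of untreated muscle. RNA of whole muscle was measured on 2 versions of an Affymetrix murine array, Av2 and A. The 2 d group held 2 arrays of Av2 and 2 of A, and the 1 d group held 2 arrays of Av2 and 2 of A. A dose, 100 ul at 10 uM, is labelled for the 4 A arrays only. The sources used here state no strain, sex or age for these mice, nor whether a number in a sample code marks an animal. The 1 d arrays of a version share a code number (1LL and 1RL on Av2, 3LL and 3RL on A). The 2 d arrays do not (1RL and 2LL on Av2, 5RL and 6LL on A). If a number marks an animal, each 1 d pair came from 1 animal. The p-values rest on the spread between same-time arrays pooled over all cardiotoxin times of a version (52 arrays on Av2, 10 on A), which may be technical.

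Between these days the debris of dead fibres is cleared. Neutrophils arrive first in an injured muscle and monocytes follow, which become macrophages that engulf debris and bind it through complement. Satellite cells leave quiescence, switch on Myod1, copy their DNA and divide before they differentiate and fuse. Fibroblasts divide too and lay down collagen. Cells that divide make their DNA replication proteins in S phase and the proteins of spindle, chromosome and cell cleavage in G2 and M phase, and many promoters of mitosis genes carry CHR and CCAAT elements close to the start site.

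Values are intensities of probe sets, sets of short oligonucleotides for 1 transcript, as deposited, with every array at the same 2% trimmed mean (800.5 to 800.8). Intensities were raised to a floor (64.7 on Av2, 662.1 on A) and put on the log2 scale, so that a change against arrays at the floor is a lower bound. Tests covered probe sets above the floor on 2 or more of the 4 compared arrays of a version, which held for 10236 on Av2 and 3641 on A. The share of probe sets above the floor was 76.4% to 81.9% on Av2 arrays and 34.2% to 34.9% on A arrays. A log2 change is the 2 d mean minus the 1 d mean, its standard error (SE) and adjusted p come from limma fitted to all cardiotoxin arrays of the version, and a probe set passed at an adjusted p under 0.05. Values are compared within 1 probe set, since intensities of different probe sets are not on a common scale.

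The 1 d arrays differed more from each other than the 2 d arrays did. On Av2 the log2 values of the pair correlated across tested probe sets at r = 0.956 at 2 d and 0.918 at 1 d, and on A at 0.956 and 0.904. Over probe sets above the floor on both versions, the log2 difference between the Av2 pair had a standard deviation of 0.59 at 1 d and 0.35 at 2 d. It was 0.83 at 12 h, 0.35 at 4 d and 0.28 at 10 d. Because SE and adjusted p pool the spread over all times, they can understate the spread at 1 d. Slow fibre genes stood highest on 1 d replicate 2, and several neutrophil genes on 1 d replicate 1. The 2 versions did not vary independently. At both times the difference between replicates 1 and 2 on Av2 correlated with the difference between replicates 1 and 2 on A (r = 0.55 over 3233 probe sets at 2 d and 0.66 over 3021 at 1 d), and each A array was most like the Av2 array of its own time and code letters, although the code numbers differ. The 12 h arrays, whose codes are the same on both versions, gave r = 0.83. The untreated arrays, outside the comparison, also have the same codes on both versions and gave r = 0.28. The 4 d and 10 d arrays, whose code numbers differ between versions, gave 0.20 and 0.13. Agreement between Av2 and A is therefore agreement between measurements that may share RNA, and A is not counted as further replicates. On Av2 the 3' control probe set for b-actin read 528.6 and 665.7 at 2 d, against 2334 and 1376 at 1 d, while its ratio to the 5' probe set was 0.0562 and 0.0333 at 2 d and 0.0695 and 0.0782 at 1 d. On A that ratio was 0.950 and 0.798 at 2 d, against 0.929 and 0.768 at 1 d. The part of these differences in the results was not tested.

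On Av2, 427 probe sets were higher at 2 d (4.17% of those tested) and 208 were lower (2.03%). Of the 10236 tested there, 1853 had an unadjusted p under 0.05 in limma, in either direction. On A, 106 were higher (2.91%) and 44 lower (1.21%), and all 150 had the same sign on Av2. Of the Av2 calls, 351 could be tested on A. The 237 rises among them had the same sign there in 231 cases, and the 114 falls in all 114. No Av2 rise had overlapping groups, and 4 of the falls had, Myl2 and Myh7 among them. Agreement was counted where both 2 d arrays of A also lay on the same side of both 1 d arrays, which held for 28.6% of the 3636 probe sets tested on both versions in the higher direction and 23.8% in the lower. By that rule 218 probe sets were higher on Av2 and on A (6%), and 104 were lower on both (2.86%). In 61 of these rises both 1 d arrays of A lay at the floor, and in 14 of the falls both 2 d arrays, so that the filter itself fixed their direction on A and they could not have disagreed. The same held on Av2 for 20 of the 427 rises and 15 of the 208 falls. Taken by gene, with the brightest probe set standing for it, 341 of 7289 genes were higher (4.68%) and 162 lower (2.22%), of which 179 (6.09% of the 2940 genes tested on both) and 87 (2.96%) agreed on A. The median change of all tested probe sets was 0.01 on Av2 and -0.01 on A. The counts leaned on single arrays: the 427 rises became 257 without 2 d replicate 1, 146 without 2 d replicate 2, 252 without 1 d replicate 1 and 527 without 1 d replicate 2, and the 208 falls became 139, 67, 185 and 214. In all, 105 rises and 25 falls passed in the full fit and in each of those 4. With only the 4 compared arrays in limma, which leaves 2 residual degrees of freedom, no probe set passed on either version, while 952 on Av2 and 731 on A had an unadjusted p under 0.05.

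**Figure D1:**
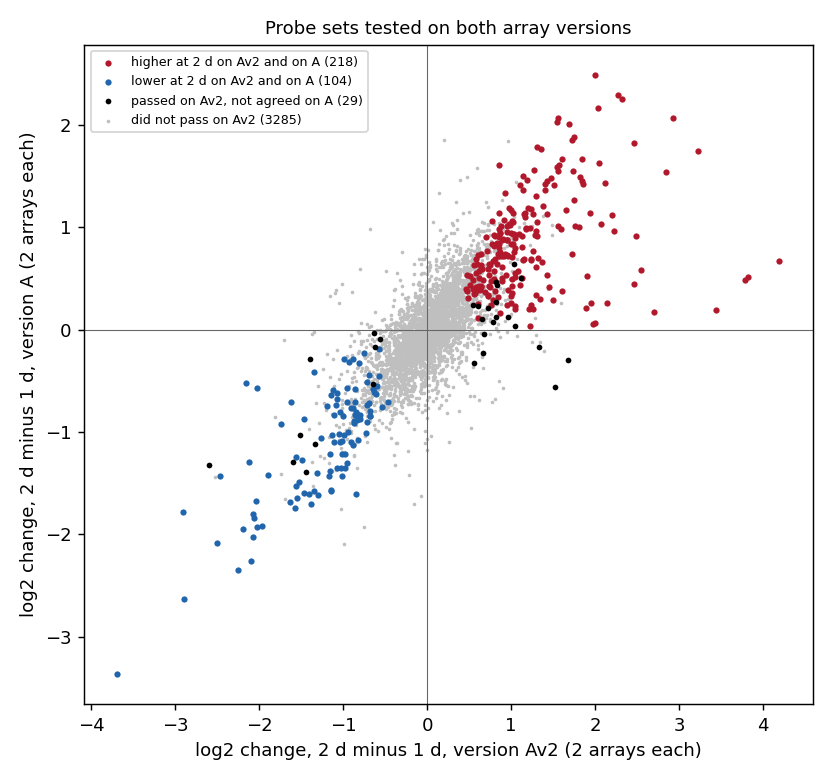
Each point is 1 of the 3636 probe sets tested on both versions, with its log2 change (2 d minus 1 d) on Av2 along the x axis and on A along the y axis. The 218 rises and 104 falls that agreed are coloured. Cdk1, Mki67 and Anln, at 4.19, 3.82 and 3.78 on Av2, lie at 0.67, 0.51 and 0.49 on A, where both 1 d arrays lay at the floor.

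Across all probe sets tested on both versions 78.7% had the same sign, with r = 0.76 across probe sets. The plot of changes on both versions shows the agreed calls toward the upper right and lower left. Among agreed rises the median change was 1.03 on Av2 and 0.74 on A, and among agreed falls -1.05 on Av2 and -1.02 on A. Bmyc, a relative of the Myc regulators, was the single Av2 call whose arrays lay apart the other way on A. It read 1045 and 1031 on the 2 d arrays, against 762 and 652 on the 1 d arrays of Av2 (log2 change 0.56, adjusted p = 0.048), and 712 and 799 at 2 d, against 989 and 908 at 1 d on A. The call was lost without each of the 4 arrays in turn (highest adjusted p = 0.207, without 1 d replicate 2).

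Of the 42 gene lists examined, mitosis had the most rises. Of 45 tested members of that list 35 were higher at 2 d, none was lower (40 and 0 at an unadjusted p under 0.05), and the median log2 change of the list was 1.72. On A 17 of the 35 were tested, and in 14 of them both 1 d arrays lay at the floor, which fixed the direction. The other 3 agreed. On Av2 14 of the 35 had at least 1 of the 2 1 d arrays at the floor, and 6 had both, which fixed their direction there too. The count was 23 without 2 d replicate 1 and 19 without 2 d replicate 2, when 39 members could be tested, 31 without 1 d replicate 1 and 26 without 1 d replicate 2. In RNA of whole muscle, more dividing cells and more RNA per dividing cell cannot be told apart.

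The kinase Cdk1, which drives cells into mitosis, read 1386 and 1565 on the 2 d arrays, against 95.4 and 68.1 on the 1 d arrays. Its 2 d arrays were far above both 1 d arrays, by 4.19 (SE 0.58, adjusted p = 1.2e-05) on the log2 scale, which is 18.3-fold. On A it read 947 and 1169 at 2 d and below the floor on both 1 d arrays. Ccnb2, a cyclin that partners Cdk1, had 3215 and 3547 at 2 d, against 719.7 and 521 at 1 d, with 2254 and 2613 at 2 d, against 705 and 534 at 1 d on A. It changed by 2.46 (SE 0.21, adjusted p = 4.1e-09) on Av2 and by 1.83 on A (SE 0.21, adjusted p = 0.0072), so that the rise was seen on both versions with values above the floor on 3 of the 4 1 d arrays. Mki67, the Ki-67 protein that coats mitotic chromosomes and marks cycling cells, read 929.7 and 896 on the 2 d arrays, against 4.46 and 8.21 on the 1 d arrays. Since both 1 d arrays lay below the floor, its change of 3.82 (SE 0.32, adjusted p = 3.2e-09) is a lower bound, at least 14.1-fold. Mki67 entered the test through its 2 d arrays alone, which fixed its direction, and it could not be tested without either of them.

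Anln, Kif20a and Prc1, which act in cell cleavage, also rose. Anln, the anillin of the cleavage furrow, had 923 and 1059.9 at 2 d, against 80.3 and 32.3 at 1 d, a change of 3.78 (SE 0.39, adjusted p = 1.1e-07). Kif20a, a kinesin of the central spindle, stood at 1152 and 1582 at 2 d, against 73.8 and 35.7 at 1 d, a change of 4.29 (SE 0.36, adjusted p = 2.8e-09). Its probe set can match related transcripts. The second probe set of the gene gave 2.06 (adjusted p = 8.6e-05), a lower bound. Both 1 d arrays lay below the floor there, with 18.2 and 8.96, which fixed its direction. Prc1, which bundles the microtubules of that spindle, had 836 and 996 at 2 d, against 132 and 30.2 at 1 d, a change of 3.30 (SE 0.29, adjusted p = 4.9e-09). In each of these genes both 2 d arrays were above both 1 d arrays. Their 1 d replicate 2 lay below the floor, so that the changes are lower bounds, and the calls held without each array in turn.

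Birc5, Aurkb and Stmn1 followed. Birc5, or survivin, a subunit of the chromosomal passenger complex, read 642 and 768 at 2 d, against 8.85 and 28.5 at 1 d, a change of 3.44 (SE 0.33, adjusted p = 3.5e-08). Both 1 d arrays lay below the floor, and Birc5 could not be tested without either 2 d array. Aurkb, the kinase of that complex, read 955 and 513 at 2 d, against 92.8 and 57.8 at 1 d, a change of 3.18 (SE 0.64, adjusted p = 0.0019), the 2 d arrays differing from each other more than those of Birc5. Stmn1, which takes microtubules apart, had 2581 and 2934 at 2 d, against 295 and 499.7 at 1 d, with 1936 and 1907 at 2 d on A with both 1 d arrays below the floor. Its change was 2.84 (SE 0.33, adjusted p = 5.2e-07). The other members of the list that rose changed by 0.92 or more, and the 10 that did not pass had changes between 0.01 and 1.54.

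**Figure D2:**
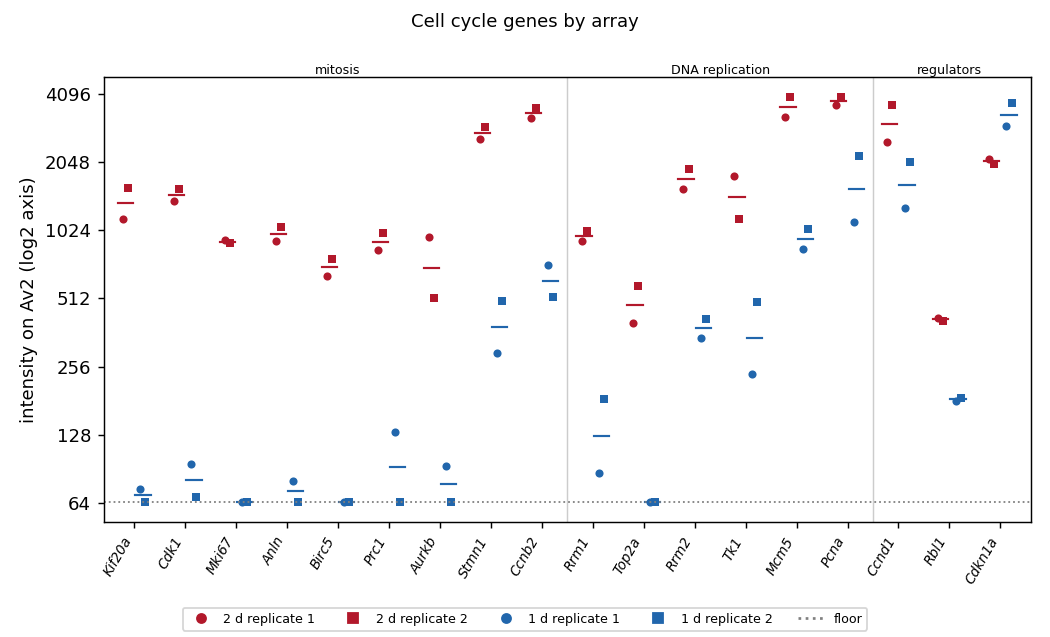
Intensities on Av2 (log2 axis) of cell cycle genes chosen by the naming rule. Circles are replicate 1 and squares replicate 2, 2 d stands left of 1 d for each gene, bars are means of log2 values, and values below the floor (dotted) are drawn at it. Apart from Cdkn1a, the 2 d points lie above the 1 d points in every gene drawn.

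Promoter sequences, from 250 bases before to 50 after the start, are shown for 5 mitosis genes with large rises on Av2 that were counted as agreed on A. In 14 of the 17 mitosis rises tested on A, Cdk1, Mki67 and Anln among them, 1 d arrays at the floor fixed that agreement. Each of the 5 was found once in the table of promoters, and not every gene with an agreed rise of that size is included. The sequences are shown because CHR and CCAAT elements are known from promoters of such genes. They are RefSeq sequences of build GRCm38.p6, on the gene's strand from 5′ to 3′, with capitals for matches on either strand to CHR (TTTGAA), the CCAAT box (CCAAT) and an E2F motif (TTTNNCGC). Cdk1 lies on the minus strand at chr10:69352863-69353162, Mki67 on the minus strand at chr7:135716330-135716629, Anln on the minus strand at chr9:22389157-22389456, Birc5 on the plus strand at chr11:117848987-117849286 and Ccnb2 on the minus strand at chr9:70421505-70421804.
Cdk1: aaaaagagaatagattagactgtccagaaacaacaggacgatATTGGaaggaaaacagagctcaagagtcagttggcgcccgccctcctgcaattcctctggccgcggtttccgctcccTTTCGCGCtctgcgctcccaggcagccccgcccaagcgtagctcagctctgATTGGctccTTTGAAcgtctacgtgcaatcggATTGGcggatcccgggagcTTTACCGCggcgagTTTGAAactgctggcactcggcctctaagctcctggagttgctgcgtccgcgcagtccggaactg
Mki67: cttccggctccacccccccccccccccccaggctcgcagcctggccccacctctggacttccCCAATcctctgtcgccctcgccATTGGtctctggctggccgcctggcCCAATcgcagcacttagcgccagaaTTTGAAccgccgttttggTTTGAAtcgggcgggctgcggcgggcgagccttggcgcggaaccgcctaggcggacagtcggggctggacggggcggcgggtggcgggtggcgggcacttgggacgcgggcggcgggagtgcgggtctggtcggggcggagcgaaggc
Anln: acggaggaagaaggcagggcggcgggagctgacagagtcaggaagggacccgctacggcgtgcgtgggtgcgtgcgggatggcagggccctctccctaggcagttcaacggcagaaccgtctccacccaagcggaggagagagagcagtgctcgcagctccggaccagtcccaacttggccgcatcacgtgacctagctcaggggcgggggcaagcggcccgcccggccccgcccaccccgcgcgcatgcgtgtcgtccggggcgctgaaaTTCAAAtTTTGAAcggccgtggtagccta
Birc5: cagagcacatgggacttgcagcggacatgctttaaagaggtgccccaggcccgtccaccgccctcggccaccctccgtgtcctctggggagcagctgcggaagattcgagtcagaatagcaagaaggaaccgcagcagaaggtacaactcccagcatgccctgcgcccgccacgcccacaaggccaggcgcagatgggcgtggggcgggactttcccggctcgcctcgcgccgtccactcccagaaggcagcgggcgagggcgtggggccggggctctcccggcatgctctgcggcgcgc
Ccnb2: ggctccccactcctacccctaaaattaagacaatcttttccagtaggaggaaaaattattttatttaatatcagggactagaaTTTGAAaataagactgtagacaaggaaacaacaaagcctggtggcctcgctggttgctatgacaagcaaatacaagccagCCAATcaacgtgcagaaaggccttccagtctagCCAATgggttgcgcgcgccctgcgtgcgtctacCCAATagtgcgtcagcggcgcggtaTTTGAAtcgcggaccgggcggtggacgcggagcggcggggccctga
Cdk1 held 2 CHR, 3 CCAAT and 2 E2F matches, Mki67 and Ccnb2 each 2 CHR and 3 CCAAT matches, Anln 2 CHR matches on opposite strands that began 22 and 29 bases after the start, and Birc5 none of the 3 motifs in this window. The CHR match nearest to the start began 15 bases before it in Cdk1 (position -15) and 5 bases after it in Ccnb2.

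Of the 35 mitosis genes that rose, 29 were found in the table of promoters, with 31 windows. CHR was in 64.5% of those windows against 17.9% of all 32851 windows, CCAAT in 71% against 37.4%, both together in 58.1% against 6.95%, and the E2F motif in 6.45% against 5.17%. Of the 17 DNA replication genes that rose, 15 were found, with 19 windows. There CHR was in 15.8%, CCAAT in 73.7% and the E2F motif in 31.6%. These shares describe letters in the windows, and no binding was measured.

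Genes of DNA replication rose in smaller number. Of 49 tested, 17 were higher and none lower (median 0.79), and the count lay between 12 and 16 with 1 Av2 array left out, lowest without 1 d replicate 1. Rrm2, a subunit of ribonucleotide reductase, which makes the building blocks of DNA, read 1563 and 1916 on the 2 d arrays, against 343 and 417 on the 1 d arrays, and 1336 and 1543 at 2 d on A with both 1 d arrays below the floor. Its change was 2.19 (SE 0.31, adjusted p = 1.4e-05) on Av2. Rrm1, the partner subunit, had 919 and 1015 at 2 d, against 87.0 and 184 at 1 d, a change of 2.93 (SE 0.62, adjusted p = 0.0030) that was lost without 1 d replicate 1 (adjusted p = 0.065). Mcm5, part of the helicase that opens the DNA, read 3249.8 and 3982 at 2 d, against 843 and 1040.4 at 1 d, with 2101 and 2105 at 2 d, against 859 and 1066 at 1 d on A. It rose by 1.94 (SE 0.23, adjusted p = 1.1e-06) on Av2 and by 1.14 on A (SE 0.19, adjusted p = 0.019), with a gap between the groups on both versions.

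Top2a, the topoisomerase that untangles DNA, had 399.9 and 579 at 2 d, against 35.6 and 23.5 at 1 d, a lower bound of 2.89 (SE 0.32, adjusted p = 1.9e-07) because the 1 d arrays lay below the floor, and could not be tested without either 2 d array. Pclaf, which binds the sliding clamp, read 536 and 565 at 2 d, against 87.4 and 101 at 1 d, and its change was 2.55 (SE 0.28, adjusted p = 1.6e-07). The clamp itself, Pcna, read 3678 and 3966 at 2 d, against 1115 and 2186 at 1 d. Its change of 1.29 (SE 0.39, adjusted p = 0.044) was lost without 3 of the arrays in turn (adjusted p = 0.133 without 2 d replicate 1, 0.227 without 2 d replicate 2 and 0.414 without 1 d replicate 1). Pcna and Mcm5 thus lay above the floor on both 1 d arrays, as Rrm1, Rrm2 and Pclaf did.

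Among 22 tested cyclins, kinases and inhibitors of a further list 3 rose and 1 fell. Rbl1, the pocket protein p107, had 420.3 and 408 at 2 d, against 181 and 186 at 1 d, a change of 1.17 (SE 0.25, adjusted p = 0.0037). Ccnd1, the cyclin that links growth factors to the cell cycle, read 2508 and 3656 at 2 d, against 1288 and 2052 at 1 d, a change of 0.90 (SE 0.25, adjusted p = 0.029) lost without 2 d replicate 2 (adjusted p = 0.379) and without 1 d replicate 1 (adjusted p = 0.357). Cdkn1a, the inhibitor p21, ran the other way with 2124 and 2016 at 2 d, against 2948 and 3735 at 1 d, a change of -0.68 (SE 0.19, adjusted p = 0.023) lost without 2 d replicate 1 (adjusted p = 0.079), 2 d replicate 2 (adjusted p = 0.170) or 1 d replicate 2 (adjusted p = 0.170).

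A minority of macrophage, phagocytosis and lysosome genes passed as higher. Of 38 tested markers of monocytes and macrophages 7 were higher and none lower (median 0.26), and all 7 agreed on A, where the direction of Aif1 was fixed by 1 d arrays at the floor. Of 31 genes of phagocytosis, lipid handling and complement 6 were higher and 1 lower (median 0.14), and of 37 lysosomal genes 9 were higher and none lower (median 0.37). The 7 macrophage calls became 3 without 2 d replicate 2 and 4 without 2 d replicate 1 or 1 d replicate 1, and the 9 lysosomal ones became 4 without 2 d replicate 2. The summed intensity of the macrophage list did not separate the times on Av2. It was 238916 and 199637 on the 2 d arrays, against 234955 and 173368 on the 1 d arrays. The mean log2 intensity of the list did, with 11.72 and 11.62 at 2 d, against 11.50 and 11.21 at 1 d. On A that mean was 11.85 and 11.70 at 2 d, against 11.69 and 11.33 at 1 d, a slight gap. Its defining markers Csf1r and Adgre1 were above the floor on all 4 arrays.

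The 3 chains of C1q, the molecule that starts the classical complement pathway and is made by macrophages, rose together. C1qa read 10408 and 11077 on the 2 d arrays, against 2223 and 3231 on the 1 d arrays, and 9392 and 11528 at 2 d, against 1199 and 2855 at 1 d on A. C1qb read 10271 and 12434 on the 2 d arrays, against 2229 and 3430.2 on the 1 d arrays, and 11265 and 11993 at 2 d, against 2031 and 3296 at 1 d on A. C1qc had 13020.3 and 15565 at 2 d, against 3356 and 5496 at 1 d. Their changes on Av2 were 2.00 (SE 0.21, adjusted p = 1.4e-07) for C1qa, 2.03 (SE 0.21, adjusted p = 8.0e-08) for C1qb and 1.73 (SE 0.20, adjusted p = 7.5e-07) for C1qc, about the same size in all 3 chains. On both versions replicate 1 was the lower of the 1 d arrays for each chain. Dimmer further probe sets of C1qb, Csf1r, Grn, Mki67, Mcm5, Pclaf and Adgre1 did not pass, with changes between -0.32 for Csf1r and 0.47 for Mki67.

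Csf1r, the receptor for the growth factor of macrophages, read 10204 and 9707 on the 2 d arrays, against 3995 and 4056 on the 1 d arrays, replicates that differed little from each other. The change was 1.31 (SE 0.24, adjusted p = 6.6e-04) on Av2 and 1.05 on A (SE 0.23, adjusted p = 0.048). Adgre1, the F4/80 antigen of mouse macrophages, read 2508 and 2119 at 2 d, against 969 and 1272 at 1 d, with 2532 and 2768 at 2 d, against 952 and 999 at 1 d on A, groups that did not overlap on either version. It changed by 1.44 on A (SE 0.17, adjusted p = 0.010), and by 1.05 on Av2 (adjusted p = 0.061), where it did not pass. Stab1, a scavenger receptor, had 7763 and 7777 at 2 d, against 3106 and 2504 at 1 d, a change of 1.48 (SE 0.26, adjusted p = 3.8e-04). Folr2, a folate receptor of macrophages, had 2203 and 3479 at 2 d, against 826 and 1322 at 1 d, a change of 1.41 (SE 0.22, adjusted p = 8.8e-05). Aif1, a calcium-binding protein of macrophages, had 1300.5 and 1851 at 2 d, against 222 and 344 at 1 d, and its change of 2.49 (SE 0.51, adjusted p = 0.0022) was lost without 2 d replicate 2 (adjusted p = 0.056).

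Gas6 bridges dying cells to receptors on phagocytes. It read 3179 and 3812 at 2 d, against 890.2 and 1463 at 1 d, a change of 1.61 (SE 0.23, adjusted p = 1.7e-05). Among lysosomal genes Grn, the progranulin precursor, had 9903 and 12517 at 2 d, against 5148 and 4219.7 at 1 d, a change of 1.26 (SE 0.21, adjusted p = 1.9e-04), and Gusb, the beta-glucuronidase, had 2911 and 2648 at 2 d, against 1159 and 1349 at 1 d, a change of 1.15 (SE 0.24, adjusted p = 0.0021). Both held without each array in turn. Mmp12, the elastase of macrophages, read 1825 and 2185 at 2 d, against 379.6 and 545 at 1 d, a change of 2.13 (SE 0.36, adjusted p = 2.2e-04), from a probe set that can match related transcripts, and its second probe set gave 1.73 (adjusted p = 0.012).

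Among 29 tested cytokines and chemokines of acute inflammation 2 were higher and 1 lower. Ccl8 and Ccl12, both chemokines for monocytes, were the rises. Ccl8 read 4129.8 and 3983 on the 2 d arrays, against 564 and 1167 on the 1 d arrays, and 2954 and 3375 at 2 d, against 539 and 589 at 1 d on A, a change of 2.32 (SE 0.59, adjusted p = 0.014) on Av2. Ccl12 read 2174 and 2446 on the 2 d arrays, against 511 and 1215 on the 1 d arrays, and 1766 and 2257 at 2 d, against 12.7 and 486 at 1 d on A, a change of 1.55 (SE 0.39, adjusted p = 0.014) on Av2. Both calls were lost without 3 of the Av2 arrays in turn: without 1 d replicate 1 the adjusted p was 0.180 for Ccl8 and 0.297 for Ccl12, without 2 d replicate 2 0.101 and 0.129, and without 2 d replicate 1 0.079 and 0.055. Both passed on A, with changes of 2.25 (adjusted p = 0.010) for Ccl8 and 1.59 (adjusted p = 0.0070) for Ccl12. Ccl2, the main attractant of monocytes, read 14161 and 18429 at 2 d, against 15973 and 14618 at 1 d and did not pass (log2 change 0.08, adjusted p = 0.947).

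Other inflammatory signals had groups that overlapped. Il1b, a cytokine of early inflammation, read 8986 and 2509 at 2 d, against 4716 and 2861 at 1 d (log2 change 0.37, adjusted p = 0.874), Il6 read 479 and 343 at 2 d, against 448 and 335 at 1 d (log2 change 0.06, adjusted p = 0.938), and Cxcl1, which attracts neutrophils, read 2792 and 1458 at 2 d, against 2822 and 1787 at 1 d (log2 change -0.15, adjusted p = 0.935). Tnf ranged more within 2 d than between times, with 2072 and 102 at 2 d, against 747 and 813 at 1 d (log2 change -0.76, adjusted p = 0.785). Cxcl9, an interferon-gamma chemokine, was the fall, with 38.9 and 85.1 at 2 d, against 203 and 390.1 at 1 d. It changed by -1.92 (SE 0.34, adjusted p = 4.1e-04), a bound, since 2 d replicate 1 lay at the floor.

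Among interferon-response genes, of 36 tested 5 were higher and 1 lower (median 0.56). The 5 rises became 0 without 2 d replicate 2, 2 without 1 d replicate 1 and 3 without 1 d replicate 2. Mx1, a GTPase that blocks viruses, read 154 and 387 at 2 d, against 43.1 and 55.5 at 1 d, with 2 d replicate 2 well above replicate 1. Its change of 1.92 (SE 0.45, adjusted p = 0.0083) rests on a 1 d level below the floor and could not be tested without either 2 d array.

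Neutrophil markers stood lower in the median (-0.67) with 0 of 24 higher and 1 lower in limma after adjustment (1 and 5 at an unadjusted p under 0.05, which 1853 of all 10236 Av2 probe sets reached). Their summed intensity was 111137 and 63381 on the 2 d arrays, against 195182 and 115825 on the 1 d arrays, with the higher 2 d array just below the lower 1 d array. The mean log2 intensity of the list overlapped, with 10.85 and 9.91 at 2 d, against 11.37 and 10.48 at 1 d. On A that mean overlapped too, with 10.98 and 10.54 at 2 d, against 11.47 and 10.90 at 1 d. S100a8, a subunit of calprotectin, read 27184 and 12836 at 2 d, against 44558 and 20058 at 1 d (log2 change -0.68, adjusted p = 0.753), and S100a9, its partner, read 13519 and 5541 at 2 d, against 13929 and 11916 at 1 d (log2 change -0.57, adjusted p = 0.805). Both pairs overlapped across times, and on both days the arrays of a pair differed by a wide factor in S100a8. Csf3r, the receptor of the neutrophil growth factor G-CSF, read 4046 and 3400.1 at 2 d, against 15135 and 5963 at 1 d, with 3943 and 3211 at 2 d, against 16057 and 6581 at 1 d on A, with both 2 d arrays below both 1 d arrays on both versions. It did not pass on Av2 (log2 change -1.36, adjusted p = 0.285), where 1 d replicate 1 stood far above replicate 2. Mmp8, the neutrophil collagenase, had 1591 and 628 at 2 d, against 5046 and 1815 at 1 d, a change of -1.60 (SE 0.39, adjusted p = 0.011) lost without 2 d replicate 2 (adjusted p = 0.352) and without 1 d replicate 1 (adjusted p = 0.316). Arg1, an arginase from the macrophage list, read 18182 and 10912 at 2 d, against 37010.3 and 20285 at 1 d and did not pass (log2 change -0.96, adjusted p = 0.603).

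**Figure D3:**
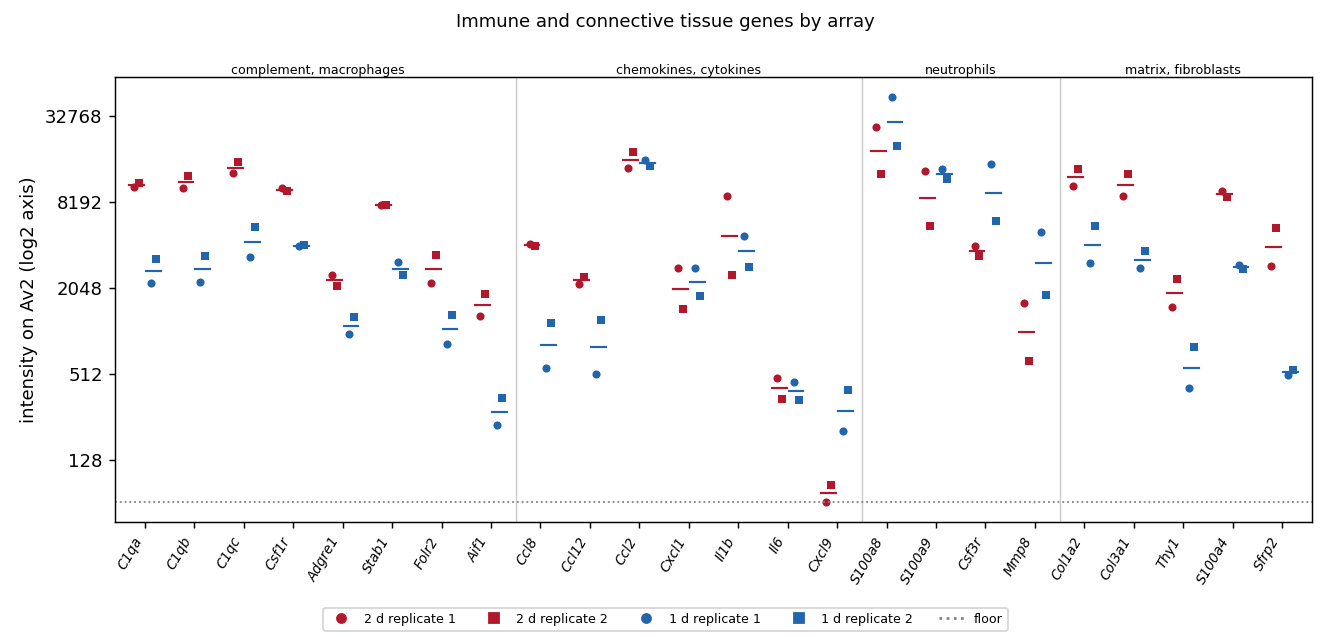
Intensities on Av2 (log2 axis) of immune and connective tissue genes, drawn as in the plot of cell cycle genes. The C1q chains and Csf1r show a clear gap between the 2 d arrays on the left and the 1 d arrays on the right, while Ccl2, Cxcl1, Il1b, Il6, S100a8 and S100a9 overlap.

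Part of the connective tissue genes rose. Of 40 tested genes of the structural matrix 11 were higher and 1 lower (median 0.13), and of 24 markers of fibroblasts and mesenchymal progenitors, which share genes with the first list, 7 were higher and 1 lower (median 0.61). The 11 became 4 without 2 d replicate 2 and 5 without 1 d replicate 1, and the 7 became 5 without 2 d replicate 2. Summed over the fibroblast markers the intensity was 97207 and 115515 on the 2 d arrays, against 80046 and 83757 on the 1 d arrays. The bright Col1a2, Col3a1 and S100a4, which passed as higher, weigh heavily in that sum. The mean log2 intensity of the list was 10.63 and 10.98 at 2 d, against 10.26 and 10.32 at 1 d.

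Col3a1 and Col1a2 encode chains of the fibrillar collagens III and I. Col3a1 read 8952 and 12926 on the 2 d arrays, against 2798 and 3692 on the 1 d arrays, and 10821 and 15876 at 2 d, against 5232 and 5638 at 1 d on A, a change of 1.74 (SE 0.30, adjusted p = 2.4e-04) on Av2. Col1a2 read 10651 and 14000.1 on the 2 d arrays, against 3057 and 5512 on the 1 d arrays, and 9467 and 13974 at 2 d, against 3385 and 4202 at 1 d on A, a change of 1.57 (SE 0.24, adjusted p = 7.1e-05) on Av2. A second probe set of Col1a2 gave -0.33 (adjusted p = 0.382), while both further probe sets of Col3a1 rose. Thy1, a surface protein of fibroblasts that mouse T cells carry too, had 1492 and 2371 at 2 d, against 404 and 789 at 1 d, a change of 1.74 (SE 0.24, adjusted p = 1.5e-05). S100a4, a calcium-binding protein of fibroblasts and macrophages, had 9739 and 8906 at 2 d, against 2973 and 2791 at 1 d, a change of 1.69 (SE 0.21, adjusted p = 1.6e-06). Each of these calls held without each array in turn.

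Sfrp2, a secreted modulator of Wnt signals, was among the largest agreed rises. It read 2891 and 5401 on the 2 d arrays, against 502 and 542 on the 1 d arrays, and 2176 and 3542 at 2 d, against 583 and 558 at 1 d on A. The change was 2.92 (SE 0.31, adjusted p = 1.2e-07) on Av2 and 2.07 on A (SE 0.22, adjusted p = 0.0072), and 2 d replicate 2 was the higher of the pair on both versions. Nid2, a basement membrane protein, had 453 and 389 at 2 d, against 183 and 80.2 at 1 d, a change of 1.79 (SE 0.27, adjusted p = 5.9e-05), from a probe set that can match related transcripts.

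Part of the acute stress genes fell. Of 46 tested immediate early and stress genes 11 were lower and none higher (median -0.56), and 10 of the 11 agreed on A, where the direction of Gadd45g was fixed by 2 d arrays at the floor. The 11 became 3 without 2 d replicate 2 and 4 without 1 d replicate 2, and stayed at 9 or 10 without the others. On A both 2 d arrays lay below both 1 d arrays in 20 of the 35 members tested there, and above them in 0. Of all probe sets tested on both versions, 23.8% lay below on A in this way and 28.6% above.

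Atf4, the transcription factor of the integrated stress response, read 4674 and 4301 on the 2 d arrays, against 8635 and 10799 on the 1 d arrays, and 4415 and 4424 at 2 d, against 8075 and 11126 at 1 d on A. It changed by -1.11 (SE 0.15, adjusted p = 1.3e-05) on Av2 and -1.10 on A (SE 0.20, adjusted p = 0.025), and the call held without each Av2 array. Mafk, a small Maf protein that pairs with Nrf2, had 1681 and 1418 at 2 d, against 3169.7 and 4829.6 at 1 d, a change of -1.34 (SE 0.21, adjusted p = 7.8e-05) that held as well. Egr1, an immediate early factor, read 2463 and 1476 at 2 d, against 2733 and 11569 at 1 d, where 1 d replicate 2 stood far above the other 3 arrays. Its change of -1.56 (SE 0.39, adjusted p = 0.012) was lost without 1 d replicate 2 (adjusted p = 0.396) and without 2 d replicate 2 (adjusted p = 0.227). Fos, another immediate early factor, read 2638 and 2426 at 2 d, against 2294 and 2518 at 1 d and did not pass (log2 change 0.07, adjusted p = 0.975).

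Of the genes named here as enzymes or binders against oxidative and metal stress, Txnrd1 and Srxn1 passed as lower, and Hmox1 and Mt1 did not. Txnrd1, a thioredoxin reductase, read 2601 and 2691 on the 2 d arrays, against 4439 and 5077 on the 1 d arrays, and 3166 and 3156 at 2 d, against 5647 and 5392 at 1 d on A. Its change was -0.84 (SE 0.17, adjusted p = 0.0016) on Av2 and -0.80 on A (SE 0.14, adjusted p = 0.025), and the call held without each Av2 array. Srxn1, a sulfiredoxin, had 679 and 594 at 2 d, against 1759 and 3830.3 at 1 d, a change of -2.03 (SE 0.51, adjusted p = 0.012) lost without 2 d replicate 1 (adjusted p = 0.051), without 2 d replicate 2 (adjusted p = 0.118) and without 1 d replicate 2 (adjusted p = 0.143). A dimmer second probe set of Srxn1 went the other way and did not pass (log2 change 0.20, adjusted p = 0.769). Hmox1, the haem oxygenase, read 23013 and 24438 at 2 d, against 46297 and 20961 at 1 d (log2 change -0.39, adjusted p = 0.558). Mt1, a metallothionein, read 18042 and 25036 at 2 d, against 36295 and 19512 at 1 d (log2 change -0.32, adjusted p = 0.455), and passed without 1 d replicate 2 (adjusted p = 0.022).

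Hbegf and Thbd fell on both versions. Hbegf, a growth factor released from the cell surface, read 788 and 865 at 2 d, against 1799.9 and 2299 at 1 d, with 659.7 and 803 at 2 d, against 2047 and 2447 at 1 d on A. Its change was -1.30 (SE 0.27, adjusted p = 0.0024) on Av2 and -1.62 on A (SE 0.21, adjusted p = 0.010). Thbd, or thrombomodulin, the thrombin receptor of endothelium, showed a wide gap with 603 and 461 at 2 d, against 3105 and 2873 at 1 d, with 960.0 and 807 at 2 d, against 4342 and 3198 at 1 d on A. Its change was -2.50 (SE 0.27, adjusted p = 1.8e-07) on Av2 and -2.08 on A (SE 0.19, adjusted p = 0.0070), and a second probe set gave -0.91 (adjusted p = 0.094). Of the 22 tested endothelial markers 2 fell and none rose (median -0.13). The 2 of that list were Thbd and Emcn. Emcn changed by -0.64 (adjusted p = 0.026), and between -0.77 and -0.52 with 1 array left out. Its call was lost without each array in turn. Further probe sets of Emcn gave -0.99 (adjusted p = 0.045) and -1.07 (adjusted p = 0.187). The summed intensity of the list was 24895 and 27076 on the 2 d arrays, against 32076 and 31663 on the 1 d arrays.

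Among genes of fuel use, Pdk4, a kinase that shuts off glucose oxidation by blocking pyruvate dehydrogenase, had the largest fall that agreed on A. It read 1500.2 and 747 on the 2 d arrays, against 9931 and 18721 on the 1 d arrays, and 1529 and 944 at 2 d, against 9818 and 15624 at 1 d on A. Its change was -3.69 (SE 0.38, adjusted p = 8.0e-08) on Av2 and -3.37 on A (SE 0.39, adjusted p = 0.0081), and it held without each Av2 array. Ckmt2, the mitochondrial creatine kinase of muscle, had 2587 and 2105 at 2 d, against 7889.7 and 12005 at 1 d, a change of -2.06 (SE 0.39, adjusted p = 0.0010). Fabp3, a fatty acid carrier of oxidative fibres, had 182 and 164 at 2 d, against 389 and 1625 at 1 d, a change of -2.20 (SE 0.50, adjusted p = 0.0056) lost without 2 d replicate 2 (adjusted p = 0.067) and 1 d replicate 2 (adjusted p = 0.182).

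Calls were few in the wider metabolic lists. Of 26 genes of fatty acid uptake and oxidation 3 fell (11.5%) and none rose. Of 28 genes of glycolysis and glycogen 3 fell (10.7%) and none rose (median -0.38). Among all genes 2.22% were lower. Without 2 d replicate 2 the falls were 1 for fatty acid genes and 0 for glycolysis genes. Of 52 respiratory chain and citric acid cycle genes tested on A, both 2 d arrays lay above both 1 d arrays in 7 and below in 10. For all probe sets tested on both versions those shares on A were 28.6% and 23.8%. None of the 71 genes of that list tested on Av2 passed in limma in either direction (median -0.09). At an unadjusted p under 0.05, which 1853 of all 10236 Av2 probe sets reached, 3 were higher and 7 lower. Here too the count depended on the 1 d array kept, with 5 falls without 1 d replicate 1 and 2 rises without 1 d replicate 2, when the median was 0.09.

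Slow fibre genes were lower in the 2 d mean, with arrays that overlapped. Of 12 tested genes of the slow contractile apparatus 5 fell and none rose (median -1.66), and 9 of the 12 had overlapping groups. Summed over the list the intensity was 24819.7 and 13810.5 on the 2 d arrays, against 19029 and 92737 on the 1 d arrays, so that 1 d replicate 2 alone stood apart. Myl2, the slow myosin light chain, read 1043 and 129 on the 2 d arrays, against 929 and 8086 on the 1 d arrays, and 704 and 36.1 at 2 d, against 708 and 7806 at 1 d on A. Its change of -2.90 (SE 0.80, adjusted p = 0.024) was lost without 1 d replicate 2 (adjusted p = 0.373) and without 2 d replicate 2 (adjusted p = 0.541). Myh7, the slow myosin heavy chain, read 1268 and 59.7 at 2 d, against 1254 and 7508 at 1 d, and its change of -3.42 (SE 0.93, adjusted p = 0.023) was lost in the same way (adjusted p = 0.252 and 0.649). Tnnc1, the slow troponin C, read 851 and 189 at 2 d, against 899.9 and 6549.9 at 1 d, with a change of -2.60 (SE 0.59, adjusted p = 0.0062) lost in the same fits (adjusted p = 0.233 and 0.287). Of the 5 falls 1 was left without 1 d replicate 2 and 1 without 2 d replicate 2, whereas 9 passed without 1 d replicate 1 and 7 without 2 d replicate 1. A dimmer second probe set of Myh7 went the other way and did not pass (log2 change 0.74, adjusted p = 0.577). Mb, the myoglobin of oxidative fibres, did separate the times, with 1588 and 1152 at 2 d, against 3993 and 10438 at 1 d, with 2533 and 939.8 at 2 d, against 5612 and 11008 at 1 d on A. Its change was -2.25 (SE 0.36, adjusted p = 8.9e-05), and the call held without each Av2 array.

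Ankrd1, Xirp1 and Rcan1 fell, with groups that did not overlap. Ankrd1, which binds titin, read 3423 and 2602 on the 2 d arrays, against 8581 and 18456 on the 1 d arrays, and 3012 and 2374 at 2 d, against 7344 and 16041 at 1 d on A, a change of -2.08 (SE 0.34, adjusted p = 1.7e-04) on Av2 that held without each array. Xirp1, an actin-binding protein of injured muscle, read 3508 and 3864 on the 2 d arrays, against 10393 and 23991 on the 1 d arrays, a change of -2.10 (SE 0.48, adjusted p = 0.0059) lost without 1 d replicate 2 (adjusted p = 0.105). Rcan1, an inhibitor of calcineurin, had 1175 and 1133 at 2 d, against 2888 and 8103 at 1 d, a change of -2.07 (SE 0.36, adjusted p = 2.7e-04). In all 3 the 1 d arrays differed from each other by a wide margin and 1 d replicate 2 was the higher, as for the slow fibre genes.

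In fast fibre genes calls were few. Of 27 tested genes of the adult fast contractile apparatus 1 rose (3.7%) and 2 fell (7.41%), with a median of -0.50. Among all genes 4.68% were higher and 2.22% lower. The count turned with the 1 d array kept, with 0 higher and 5 lower without 1 d replicate 1 and 3 higher and 0 lower without 1 d replicate 2. The fast myosin heavy chain Myh4 read 25671 and 30007 at 2 d, against 36759.8 and 14381 at 1 d (log2 change 0.27, adjusted p = 0.893), and the skeletal actin Acta1 read 21529 and 28570.4 at 2 d, against 42523 and 18204 at 1 d (log2 change -0.17, adjusted p = 0.979). Both markers of muscle fibre lay above the floor on all 4 arrays, and their 2 d values lay inside the span of the 1 d pair. Tpm2, a tropomyosin, had 2987 and 3076 at 2 d, against 5933 and 11889 at 1 d, a change of -1.47 (SE 0.32, adjusted p = 0.0037) lost without 1 d replicate 2 (adjusted p = 0.100).

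Myogenic regulators divided. Of 34 tested genes of that list 4 rose and 1 fell, and without 2 d replicate 2 the rises were 1. Myod1, the factor that commits satellite cells to muscle, read 2329 and 2429 on the 2 d arrays, against 1897 and 3206 on the 1 d arrays, and 1877 and 2185 at 2 d, against 1550.0 and 2837 at 1 d on A, with the 2 d values inside the 1 d pair and no call (log2 change -0.05, adjusted p = 0.943). Myog, which starts differentiation, read 1200.2 and 714 at 2 d, against 322 and 854 at 1 d and did not pass (log2 change 0.82, adjusted p = 0.190), but did without 1 d replicate 2 (adjusted p = 0.0088). Myf5, a factor of committed satellite cells, lay close to the floor with 71.2 and 64.4 at 2 d, against 53.9 and 74.0 at 1 d (log2 change -0.03, adjusted p = 0.988). Myf6, the regulator of mature fibres, was the fall, with 517 and 511 on the 2 d arrays, against 1558 and 5171 on the 1 d arrays, and 929 and 836 at 2 d, against 1319.5 and 4241 at 1 d on A. It changed by -2.46 (SE 0.39, adjusted p = 8.3e-05) on Av2, with 1 d replicate 2 again the higher of its pair.

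Among the rises, Chrna1, the muscle acetylcholine receptor subunit that spreads over fibres without nerve contact, had 684 and 447 at 2 d, against 67.7 and 278 at 1 d. Its change of 2.01 (SE 0.45, adjusted p = 0.0055) was lost without 2 d replicate 1 (adjusted p = 0.085) and without 1 d replicate 1 (adjusted p = 0.269). Snai2, a repressor of the Snail family, had 819 and 1505 at 2 d, against 604 and 763 at 1 d. Its change of 0.71 (SE 0.21, adjusted p = 0.037) was lost without 2 d replicate 2 (adjusted p = 0.697), without 1 d replicate 1 (adjusted p = 0.276) and after quantile normalization (adjusted p = 0.057). Igf1, a growth factor for muscle, read 1948 and 2047 at 2 d, against 2714 and 2013 at 1 d and did not pass (log2 change -0.23, adjusted p = 0.683), while a second probe set gave 1.08 (adjusted p = 0.042). Tgfb1, which drives matrix production, read 3091 and 3123 at 2 d, against 1646 and 1676 at 1 d, groups apart that did not pass (log2 change 0.90, adjusted p = 0.421).

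**Figure D4:**
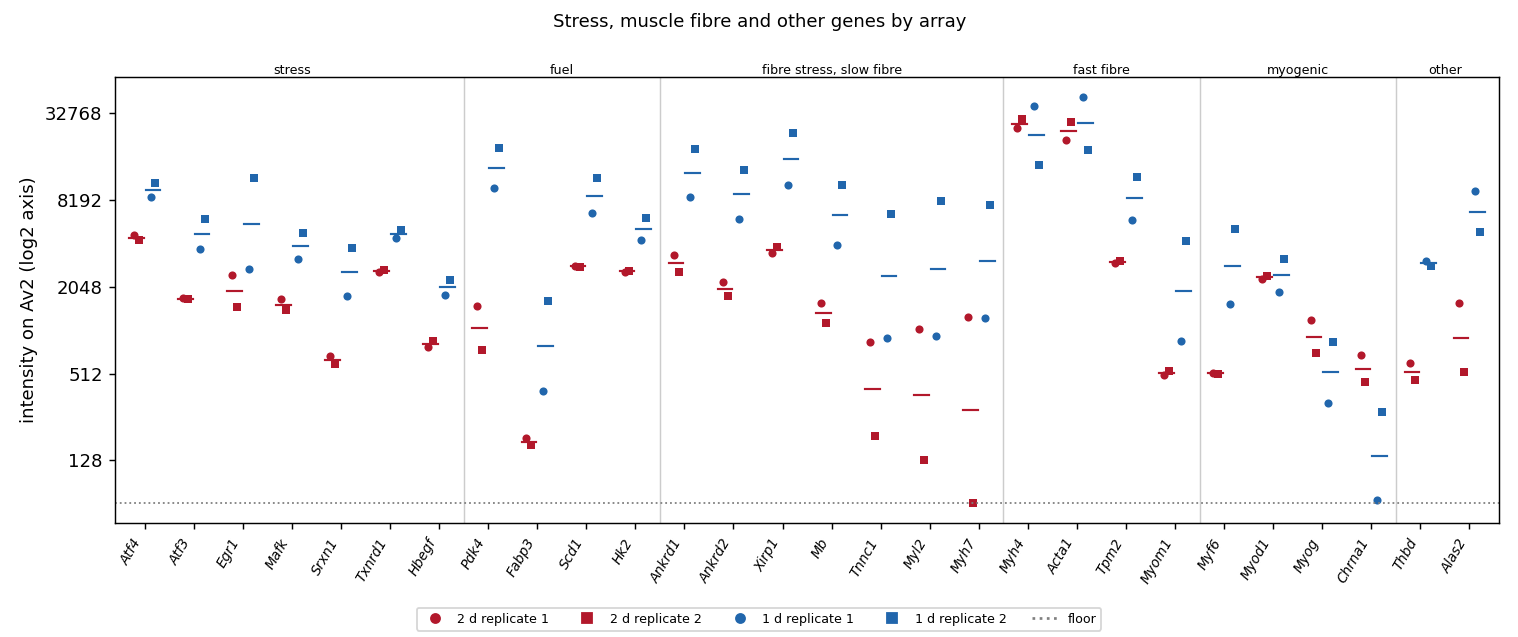
Intensities on Av2 (log2 axis) of stress, fuel, muscle fibre and myogenic genes, drawn as in the plot of cell cycle genes. In Atf4, Txnrd1, Hbegf, Pdk4 and Thbd the 2 d arrays lie below both 1 d arrays, and in Tnnc1, Myl2 and Myh7 1 d replicate 2 (square) alone stands high.

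Markers of other cells in the muscle showed single calls. Alas2, the haem synthesis enzyme of red cell precursors, read 1572 and 527 on the 2 d arrays, against 9415 and 4889.6 on the 1 d arrays, and 1106 and 277 at 2 d, against 7926 and 3529 at 1 d on A. Its change of -2.90 (SE 0.52, adjusted p = 4.1e-04) came from a probe set that can match related transcripts and was lost without 2 d replicate 2 (adjusted p = 0.053). It was the 1 fall among 7 tested erythroid genes. Of 14 adipocyte genes 3 fell (none without 2 d replicate 1) and 1, Cebpa, a transcription factor that myeloid cells share, rose with 6025 and 6797 at 2 d, against 3519 and 3013 at 1 d, a change of 0.97 (SE 0.18, adjusted p = 5.1e-04). Scd1, a fatty acid desaturase among the falls, had 2858 and 2832 at 2 d, against 6654 and 11614 at 1 d, a change of -1.63 (SE 0.39, adjusted p = 0.0085) lost without 1 d replicate 2 (adjusted p = 0.108), 2 d replicate 2 (adjusted p = 0.076) and 2 d replicate 1 (adjusted p = 0.0503). Its relative Scd2 went the opposite way, with 3993 and 4277 at 2 d, against 1809 and 1520.1 at 1 d, a change of 1.32 (SE 0.20, adjusted p = 5.5e-05) that held. Of 10 Schwann cell and nerve genes 1 fell, and none of 13 B cell genes, 10 smooth muscle genes, 12 skin genes or 4 tendon genes passed.

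The remaining lists stand beside shares of 4.68% higher and 2.22% lower among all genes. Several exceeded them. In the embryonic and cardiac-type sarcomere list 33.3% were lower, in metallothioneins, haem and iron 15%, and in the clock list 14.3%. In matrix turnover 13.5% were higher. Of 37 genes of matrix turnover 5 rose and 1 fell, of 35 proteasome genes and atrophy ligases 2 rose, of 20 genes of sterol and fatty acid synthesis 2 rose and 1 fell, and of 28 growth factors 2 rose and 3 fell. In the lists of cytokine receptors (31 tested), class II antigen presentation (17), T and natural killer cells (19) and mast cells with other granulocytes (9), 1 gene each rose. Of 15 embryonic and cardiac-type sarcomere genes 5 fell (1 without 1 d replicate 2 and 2 without 2 d replicate 2), of 31 heat shock genes 3, of 20 genes of metallothioneins, haem and iron 3, of 21 hypoxia genes 2, and of 14 clock genes 2. Of 24 genes of the dystrophin complex and synapse 1 rose and 2 fell, and 1 fell among 38 genes of ribosome biogenesis and among 6 platelet genes. Without 2 d replicate 1 the rises in matrix turnover were 3 and the heat shock falls 1, and without 2 d replicate 2 no growth factor rose.

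**Figure D5:**
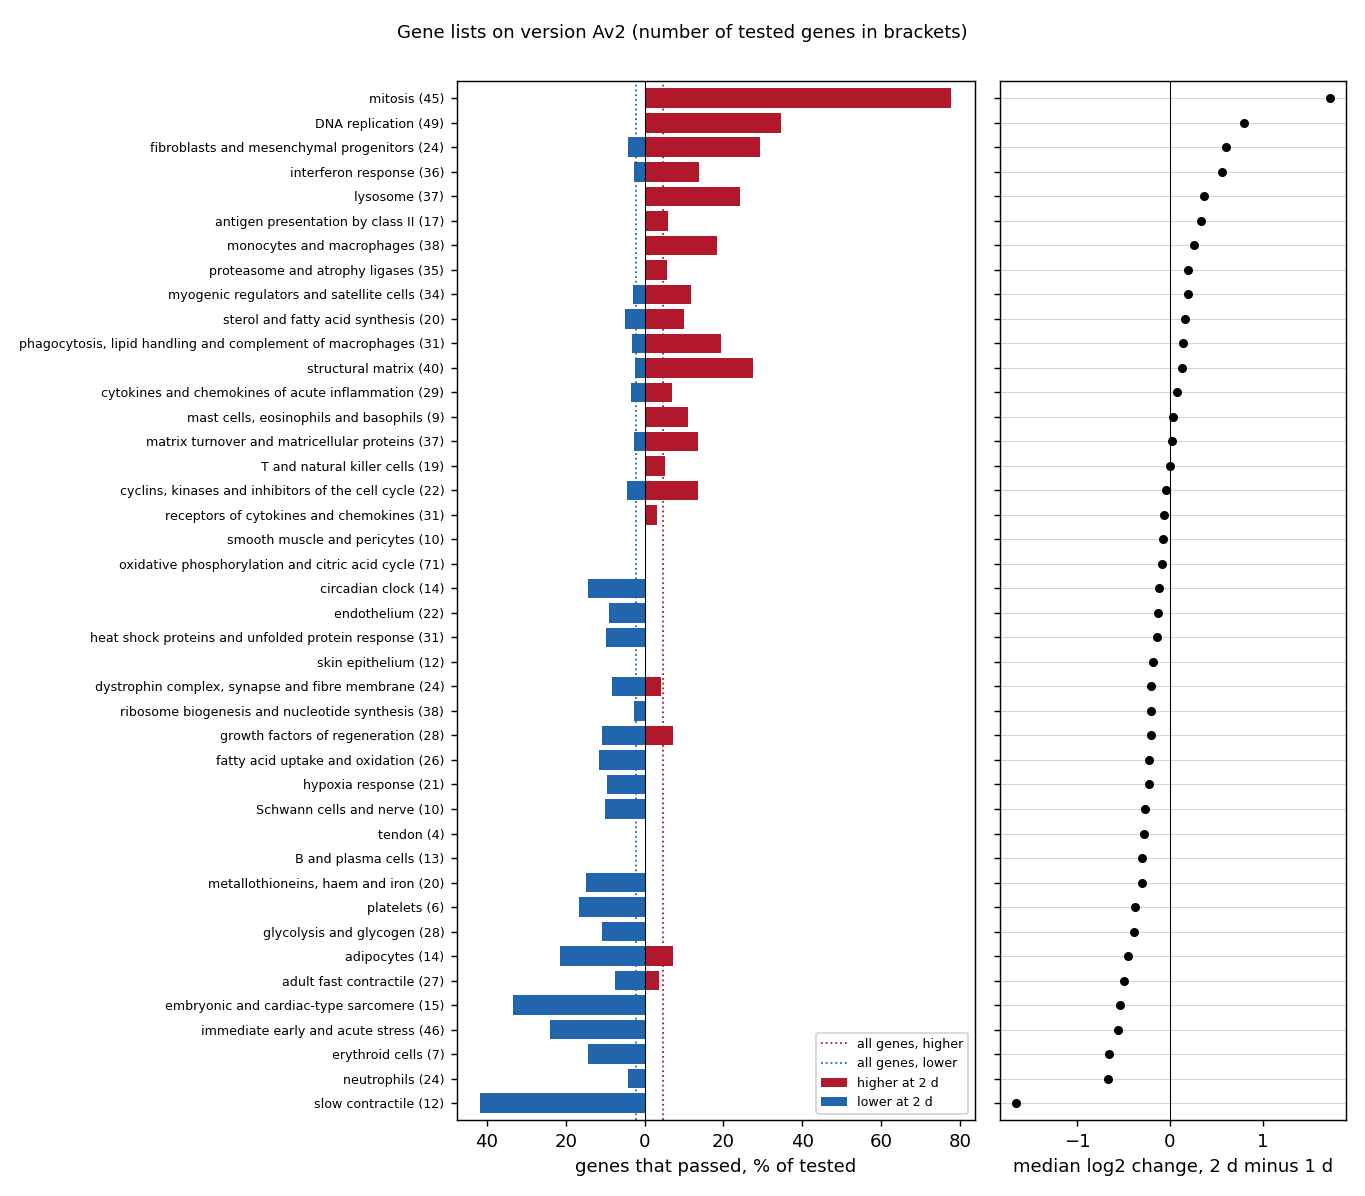
Left, the share of tested genes of each of 42 lists that passed on Av2, higher at 2 d to the right and lower at 2 d to the left, with the shares of all genes dotted (4.68% and 2.22%). Right, the median log2 change of the list. Lists run by median, with mitosis (1.72, 35 of 45 higher) and the slow contractile list (-1.66, 5 of 12 lower) at the ends.

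Some large calls had no tested probe set of the same ID on A. Besides the cell cycle genes named above, these included the falls Pon1, the plasma paraoxonase, with 28.0 and 22.6 at 2 d, against 336 and 371 at 1 d, and Fgf1, a fibroblast growth factor, with 93.7 and 41.7 at 2 d, against 463 and 325 at 1 d. Pon1 changed by -2.45 (SE 0.53, adjusted p = 0.0038), a bound since both 2 d arrays lay below the floor, and could not be tested without either 1 d array. Fgf1 changed by -2.32 (SE 0.60, adjusted p = 0.016), lost without 2 d replicate 2 (adjusted p = 0.172) and without 1 d replicate 1 (adjusted p = 0.121).

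The neighbouring times of Av2, 12 h and 3 d with 2 arrays each, place these changes without a test. Of the 341 genes higher at 2 d, the 3 d mean was higher still in 253 and lower than the 2 d mean in 88, and in 3 it was below the 1 d mean. Of the 162 genes lower at 2 d, the 12 h mean was above the 1 d mean in 97 and the 3 d mean was below the 2 d mean in 86. Cdk1 had means of 219 at 12 h, 81.8 at 1 d, 1476 at 2 d and 2005 at 3 d, C1qa 1731 at 12 h, 2727 at 1 d, 10743 at 2 d and 15990.5 at 3 d, and Atf4 11527 at 12 h, 9717 at 1 d, 4487 at 2 d and 5004 at 3 d. Cdk1 and C1qa had their highest mean at 3 d, while Atf4 had its highest mean at 12 h.

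A minority of the rises had their highest mean of the 4 times at 2 d, 85 genes in all. After their values were seen, Ccl12, Vegfd and C3ar1 were chosen from these as the agreed rises with the largest drop to 3 d. Ccl12 had means of 412 at 12 h, 863 at 1 d, 2310.2 at 2 d and 988 at 3 d. Vegfd, a growth factor of lymphatic vessels, had 159 at 12 h, 346 at 1 d, 949.8 at 2 d and 472 at 3 d. C3ar1, the receptor of the complement fragment C3a, had 1374 at 12 h, 4006 at 1 d, 9448 at 2 d and 5901 at 3 d. In each of the 3 both 2 d arrays stood above both arrays of every one of the other 3 times.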

How the data were processed

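The authors deposited 1 processed value per probe set and array, with no unit stated. By their range these deposited values were read as intensities on a linear scale, already scaled to a common trimmed mean. Software and background method: not given in the sources used here. On A, 2611 probe sets stood at 0 on every array and were left out. As floor served the 20th percentile of the median array on Av2 and, on A, the root mean square of values below 0, multiplied by 2. Floored intensities, not the deposited values, were put on the log2 scale and fitted in limma 3.58.1 (R 4.3.3) with 1 mean per time point over all cardiotoxin arrays of the version (52 arrays of 26 times on Av2, 10 arrays of 5 times on A), without controls and without further scaling. P-values were adjusted by Benjamini-Hochberg over all tested probe sets of the version. The fit was tested on simulated data. Figures used matplotlib 3.10.9 under Python 3.11.15.

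Symbols came from the platform annotation, checked by Entrez identifier (10833 Av2 probe sets with 1 symbol, 396 with several and 1193 with none). The brightest probe set stood for a gene. The members of 42 textbook lists, the tests and the naming rule were chosen with earlier results of these data known. The rule took the 12 largest agreed rises and falls, per list up to 4 members that passed, by size of change, the 5 largest rises and falls not tested on A, calls opposite on A, and 35 genes always looked at, of which Ccnb1 and Spp1 are not analysed here. Alternatives were other scaling, floors, filters, arrays in the fit, moderation, a required 1.5-fold change, each array left out, and replicate blocks by code letters and code number. The number of arrays limits the precision.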

Additional observations from a re-analysis of the deposited data

How the results depend on the processing

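Counts are given as higher and lower at 2 d, first on Av2 (427 and 208), then on A (106 and 44), then for Av2 calls that agreed on A (218 and 104). Quantile normalization, median scaling, a lower or higher floor and trended robust moderation kept each of the 6 counts within 1.5 times. Median scaling left 59.7% of the Av2 calls higher, against 67.2% as deposited. Without a filter on low values A had 63 and 10 calls. With all 4 arrays required above the floor A had 45 and 26, and 137 rises agreed. With control arrays added to the fit A had 165 and 71. With only the 4 compared arrays all 6 counts were 0 in limma (952 probe sets on Av2 and 731 on A had an unadjusted p under 0.05), where 2 residual degrees of freedom remain. With a change of at least 1.5-fold required, 69 and 17 passed on Av2, 2 and 1 on A, and 38 and 11 agreed. With an adjusted p under 0.05 required on both versions, 73 and 30 agreed. A replicate block by code letters gave 421 and 203 on Av2, 56 and 18 on A, and 215 and 104 that agreed. The letters do not pair the samples by any label, and the block is given for the count alone. A random replicate block by code number kept all 6 counts within 1.5 times. Leaving out 1 array gave 146 to 527 and 67 to 214 calls on Av2, and 0 to 52 and 0 to 28 on A, lowest without either 2 d array of A. Agreed calls then numbered 88 to 231 and 30 to 107. No named gene that passed changed its sign, but list medians took the other sign in 26 list-by-setting runs, among the medians printed only that of the respiratory chain list (0.09 without 1 d replicate 2). The cause of these shifts was not tested.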
